A study of Rattus norvegicus with 47 samples.

Results

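Cholesterol is made from acetyl-CoA in a chain of enzymes that starts in the mevalonate pathway and ends with the closing and trimming of the sterol rings, and cells also take it up from lipoproteins. When sterols in the endoplasmic reticulum are scarce, the protein SCAP carries the transcription factor SREBP-2 (gene Srebf2) to the Golgi, where it is cut free and switches on the genes of synthesis and uptake together, while INSIG proteins hold it back when sterols are plentiful. In the kidney, the proximal tubule takes up large amounts of filtered protein and lipid, and lipid overload of glomerular cells is a known companion of obesity-related glomerulopathy.

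The 7 cholesterol genes described here were Hmgcs1, Fdps, Fdft1, Sqle, Sc5d, Dhcr7 and Stard4, chosen by their symbol in the kidney mRNA table, where all 7 of 7 were present and had a mean of at least 5, out of 14747 genes in the table and 13673 that passed this filter on low values. Hmgcs1 makes HMG-CoA, an early intermediate, Fdps makes farnesyl pyrophosphate, Fdft1 joins a pair of these into squalene, Sqle oxidizes squalene, and Sc5d and Dhcr7 work on the last sterol intermediates. Stard4 is a soluble carrier that moves cholesterol between membranes.

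Total kidney RNA had been sequenced from 16 male Wistar (Han) rats, an outbred strain, which entered the study at 7 weeks of age and ate a standard diet (SD, n = 8) or a high-fat diet (HFD, n = 8) for 10 weeks. The lesions compared here were podocyte hypertrophy (PH), in which the filter's epithelial cells enlarge, and mesangial matrix increase (MMI), in which the matrix between the capillaries expands. Mesangial cell proliferation and glomerulomegaly, which the study also describes, were not used here. The sample labels do not give the lesions, so they were read by eye from the rat numbers on the study's lesion heatmaps, where the last digits of 1246, 1248 and 1249 were the least sharp. By this reading 9 rats had PH (3 SD, 6 HFD) and 8 had MMI (3 SD, 5 HFD), of which 3 HFD rats had both, and 2 SD rats had neither. This places 2 HFD rats without PH and 3 without MMI, whereas the study's text describes early lesions in every rat on that diet. The values are the authors' normalized counts, given here without unit, and because they are not per length they were compared between rats and not between genes. They summed to between 17623718 and 22565849 per library. How many reads stand behind a value is unknown. Whole-kidney RNA cannot tell fewer cells of a type from less RNA per cell.

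Libraries of 5 rats stood apart from the other 11 on the first principal component (PC1), which held 46.2% of the variance of all genes: SD rats 1247 and 1248 and HFD rats 1252, 1255 and 1274, at 54.3 to 78.3 against -1.39 or lower. All 5 were rats with MMI, so the differences by diet, PH and MMI of the 7 genes are given with and without them. The other 3 rats with MMI were 1250, 1256 and 1267. Among the kidney's own marker genes, Umod of the thick ascending limb ran from 60580 to 116814 and Aqp1 of the proximal tubule from 39931 to 68206 among the libraries. The proximal tubule genes Slc5a2 (9.28 to 2616), Slc5a12 (3.59 to 2235) and Slc7a7 (51.0 to 1862) had the widest ranges of the 12 proximal tubule markers. The lowest levels of the other markers in that list lay between 874.6 for Slc22a8 and 39931 for Aqp1.

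The highest level of a gene among the 16 rats was up to 2.69 times its lowest. Hmgcs1 ran from 420.5 in HFD rat 1256 to 896.2 in SD rat 1247. Fdps ran from 984.3 in HFD rat 1274 to 1998 in SD rat 1250. Fdft1 had its extremes in 2 SD rats, 1743 in 1249 and 3729 in 1248. These 3 genes placed their lowest and highest levels in different rats.

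Sqle ran from 209.6 in HFD rat 1259 to 419.2 in HFD rat 1252. Dhcr7 ran from 430.2 in HFD rat 1274 to 1070 in SD rat 1246. Stard4 ran from 55.4 in SD rat 1251 to 134.0 in HFD rat 1259. Sc5d had the widest range, from 678.3 in SD rat 1244 to 1824 in SD rat 1247, a ratio of 2.69. The standard deviations on the log2 scale lay between 0.30 for Fdps and 0.41 for Stard4, beside a median of 0.40 over all genes tested, so the 7 genes varied among rats about as much as other genes or less.

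**Figure D1:**
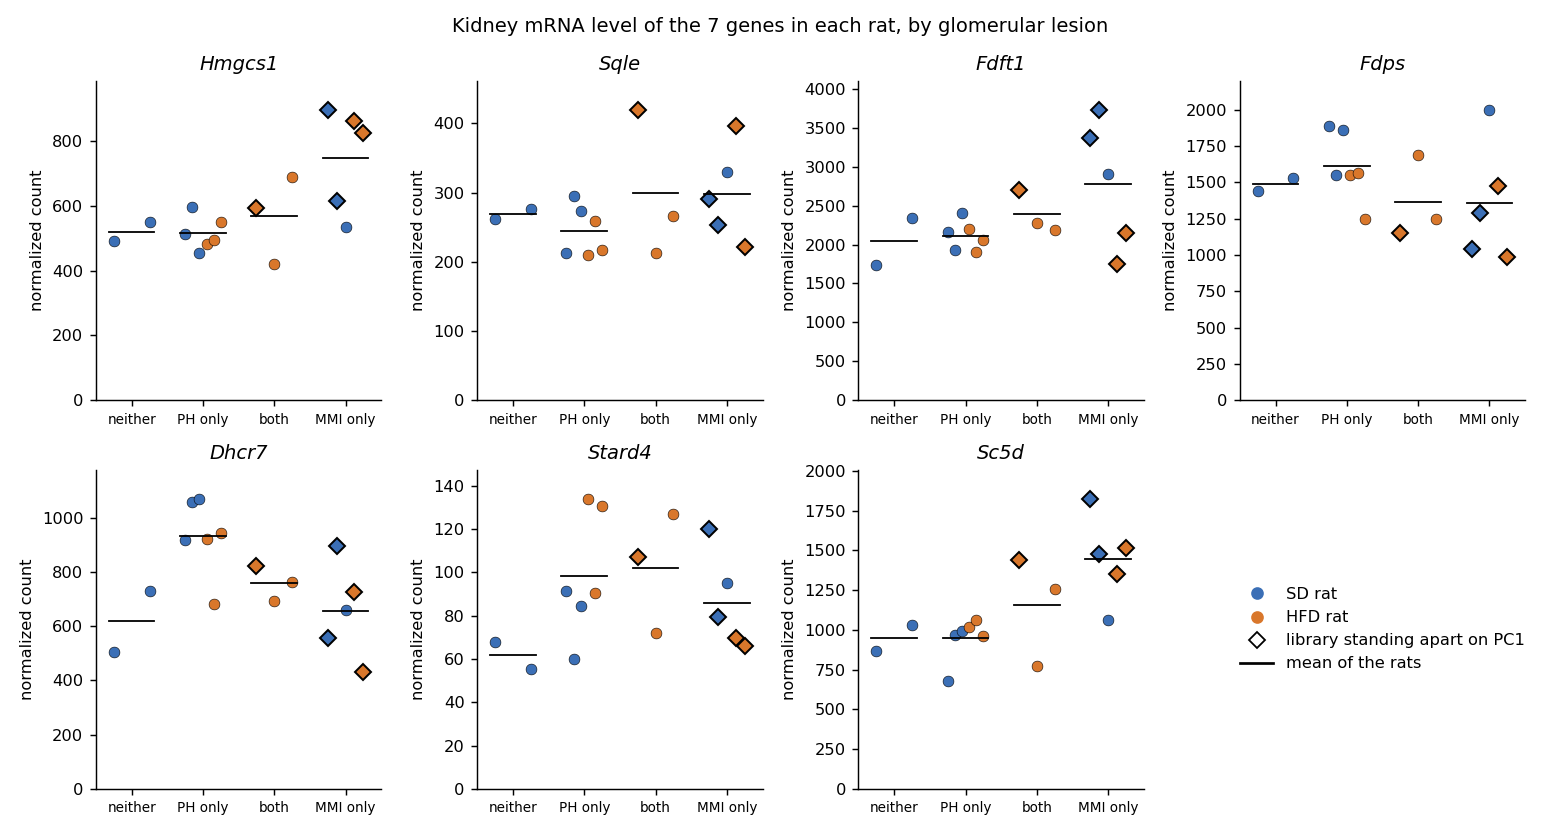
Normalized count of each of the 7 genes (y axes, from 0) in each of the 16 rats, arranged by lesion (2 rats with neither, 6 with PH only, 3 with both, 5 with MMI only) and coloured by diet; diamonds are the 5 libraries that stand apart and bars are means. The 5 highest Sc5d levels, 1349 to 1824, are all diamonds, while in Stard4 the diamonds lie among the other rats.

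The promoters of Hmgcs1, Sc5d and Fdps, chosen because the libraries that stand apart held most of the highest Sc5d and Hmgcs1 levels and most of the lowest Fdps levels, are shown with that of Dhcr7, from 250 bases before to 50 bases after the start of the gene in RefSeq (build GRCr8, while the expression table was made on Rnor6.0). Promoter entries matched 4 of the 7 genes. Capitals mark CCAAT, which reads ATTGG on the other strand and is the binding sequence of NF-Y, a factor known to work beside SREBP-2, and CACGTG, the E-box.
Hmgcs1 (chr2:53382054-53382353, plus strand): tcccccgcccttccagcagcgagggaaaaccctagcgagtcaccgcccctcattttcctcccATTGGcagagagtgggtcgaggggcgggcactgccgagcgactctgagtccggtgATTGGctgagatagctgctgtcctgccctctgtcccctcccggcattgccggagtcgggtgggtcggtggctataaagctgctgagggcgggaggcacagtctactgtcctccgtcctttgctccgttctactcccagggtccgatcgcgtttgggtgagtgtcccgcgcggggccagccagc
Sc5d (chr8:51538228-51538527, minus strand): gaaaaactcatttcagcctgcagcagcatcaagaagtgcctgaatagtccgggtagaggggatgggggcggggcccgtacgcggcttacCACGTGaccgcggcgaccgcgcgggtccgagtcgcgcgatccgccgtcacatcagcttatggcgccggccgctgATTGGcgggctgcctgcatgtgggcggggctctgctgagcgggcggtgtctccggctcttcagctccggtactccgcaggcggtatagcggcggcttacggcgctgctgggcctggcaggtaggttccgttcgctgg
Fdps (chr2:176804767-176805066, minus strand): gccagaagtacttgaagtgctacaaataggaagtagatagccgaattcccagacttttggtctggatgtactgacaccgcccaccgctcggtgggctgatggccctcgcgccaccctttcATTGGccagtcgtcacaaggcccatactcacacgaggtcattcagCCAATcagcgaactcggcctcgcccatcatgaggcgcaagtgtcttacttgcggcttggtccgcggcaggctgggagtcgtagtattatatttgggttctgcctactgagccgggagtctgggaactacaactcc
Dhcr7 (chr1:208444184-208444483, plus strand): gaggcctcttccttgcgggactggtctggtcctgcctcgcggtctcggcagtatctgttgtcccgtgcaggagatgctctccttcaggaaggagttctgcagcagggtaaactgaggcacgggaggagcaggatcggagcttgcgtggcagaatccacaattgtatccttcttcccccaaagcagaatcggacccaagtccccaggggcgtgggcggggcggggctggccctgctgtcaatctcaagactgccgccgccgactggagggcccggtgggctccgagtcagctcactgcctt

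CCAAT was found on either strand in 3 of these 4 promoters and in 37.5% of all 33469 promoters of the same length. Hmgcs1 held it with its first base 188 and 133 bases before the start, Fdps at 130 and 85 bases, and Sc5d at 87 bases. In the 13 matched promoters of the other enzymes of the pathway, 11 held it. CACGTG was found only in Sc5d among the 4, beside 6.42% of all promoters, and TCACNCCAC, a form of the sterol regulatory element, was searched on both strands and matched in none of the 4 and in 1.12% of all. CCAAT and CACGTG matches did not overlap in these windows. Hmgcs1 and Fdps, which both carry a pair of CCAAT boxes, took opposite signs in the comparison by MMI, where neither passed, and were both positive (0.06 and 0.04) without the 5 libraries that stand apart.

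The comparison by diet asked whether the high-fat diet changed the genes of cholesterol supply. None of the 7 passed, where passing meant an adjusted p under 0.05 (limma, on log2-transformed normalized counts with 1 added, Benjamini-Hochberg over all genes, two-sided) and, for diet by the study's rule, also an absolute log2 difference over 1. For PH, MMI and the interactions passing meant the adjusted p alone. Of all genes tested, 0% passed at the adjusted p, and 593 genes (4.34%) had an unadjusted p under 0.05, among them none of the 7. The study, using DESeq2, did report genes that differed by diet at these thresholds. The 0% therefore holds for the limma test used here and does not repeat the study's calls. The SD and HFD rats overlapped in each of the 7 genes, as in all but 0.0146% of all genes.

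Stard4 differed the most by diet. In SD rats it was 55.4 at the lowest, 82.0 at the median and 120.0 at the highest. In HFD rats it was 65.8, 98.8 and 134.0. The log2 difference was 0.27 (standard error 0.20, 95% interval -0.16 to 0.69, adjusted p = 0.918). In 3 HFD rats the level exceeded the highest of the SD group. Without the 5 libraries that stand apart it was 0.53 (standard error 0.21, adjusted p = 0.419), in a comparison where 0.0220% of all genes passed and 10.9% had an unadjusted p under 0.05.

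Fdft1, the first enzyme committed to sterols, ranged from 1743 to 3729 in SD rats (median 2373) and from 1749 to 2706 in HFD rats (median 2166). Its log2 difference was -0.22 (standard error 0.15, 95% interval -0.54 to 0.09, adjusted p = 0.918), and its 3 highest levels were those of SD rats with MMI. Fdps ranged from 1041 to 1998 in SD rats (median 1540) and from 984.3 to 1689 in HFD rats (median 1361), a log2 difference of -0.20 (standard error 0.14). For Hmgcs1 the difference was 0.07 (95% interval -0.28 to 0.42), for Sc5d 0.10 (-0.29 to 0.50), for Dhcr7 -0.08 (-0.47 to 0.31) and for Sqle -0.04 (-0.37 to 0.30). Without the 5 libraries that stand apart the differences by diet were -0.23 for Sqle, -0.23 for Fdps, -0.06 for Fdft1 and 0.12 for Sc5d, and within 0.01 of 0 for Hmgcs1 and Dhcr7. The intervals over all 16 rats leave room for differences of up to 0.54 in size for 6 of the genes, and of up to 0.69 for Stard4.

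**Figure D2:**
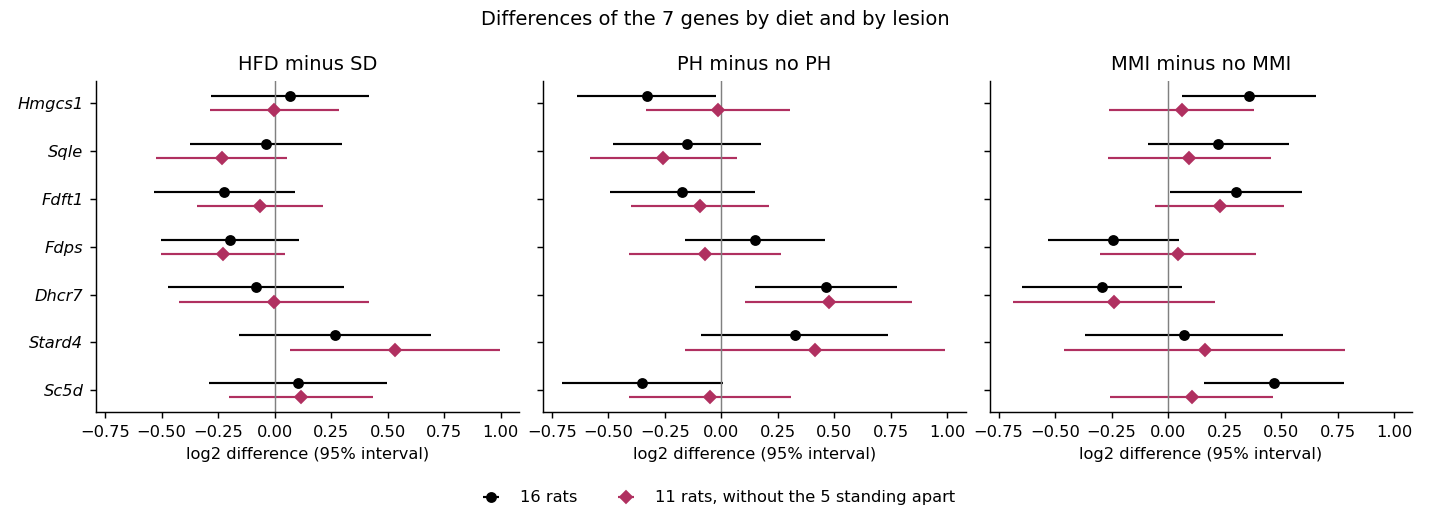
Log2 difference of each of the 7 genes (x axes, with 95% intervals) between HFD and SD rats, rats with and without PH, and rats with and without MMI, in all 16 rats (black circles) and in the 11 rats left without the libraries that stand apart (red diamonds). Sc5d by MMI lies at 0.47 in 16 rats and at 0.10 in 11, and Dhcr7 by PH at 0.46 and 0.48.

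The comparison by PH set 9 rats with the lesion against 7 without, across both diets. None of the 7 genes passed at an adjusted p under 0.05, against 174 of 13673 genes in all (1.27%). Dhcr7 and Hmgcs1 had unadjusted p-values under 0.05 (limma, 2 of 7, beside 31.6% of all genes), and they pointed in opposite directions. Rats with and without PH overlapped in each gene, as in all but 0.132% of all genes.

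Dhcr7, whose enzyme makes cholesterol from its last precursor, was 430.2 at the lowest, 660.9 at the median and 895.2 at the highest in rats without PH. In rats with PH it was 680.7, 918.3 and 1070. Of the 9 rats with PH, 5 lay above every rat without it. The log2 difference was 0.46 (standard error 0.15, 95% interval 0.15 to 0.77, unadjusted p = 0.00633, adjusted p = 0.0757). It was 0.48 without the 5 libraries that stand apart (standard error 0.17, adjusted p = 0.230), 0.63 within the SD rats and 0.51 within the HFD rats, and with diet as a covariate it was 0.57 and passed (adjusted p = 0.0187), in a fit where 27.8% of all genes passed.

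The summed level of the 8 podocyte markers was 1865 to 4738 in rats without PH and 4840 to 6962 in rats with it. Such sums weigh genes with high counts the most, and no share over all genes stands beside them. Of the 8, 2 passed, both higher, beside 0.746% of all genes. The log2 differences of the podocyte markers ran from -0.66 to 1.76. None of them passed without the 5 libraries that stand apart, where 0% of all genes passed. Proximal tubule markers summed to between 137741 and 304989 in rats without PH and to between 225907 and 400639 in rats with it, with 2 of 12 higher, beside the same share. The median log2 difference by PH was 0.91 for the podocyte and 1.02 for the proximal tubule markers, beside -0.01 over all genes. Without the 5 libraries that stand apart these medians were 0.45 and 0.35. Among other marker lists, thick ascending limb markers pointed down by PH (median log2 difference -0.42). Red blood cell (0.86), fibroblast and smooth muscle (0.66) and adipocyte markers (0.42) pointed up, and no gene of these lists passed. The part of these cell types in the Dhcr7 values was not tested.

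Hmgcs1 ran the other way, with 490.5, 615.6 and 896.2 as its lowest, median and highest level in rats without PH and 420.5, 512.9 and 689.4 in rats with it. The log2 difference was -0.33 (standard error 0.15, adjusted p = 0.136), and -0.01 without the 5 libraries that stand apart (adjusted p = 0.971), 4 of which had no PH. In that smaller comparison 0% of all genes passed and 17.7% had an unadjusted p under 0.05. Sc5d had a log2 difference of -0.35 (standard error 0.17, adjusted p = 0.163) and of -0.05 without those libraries. Stard4 was at 0.32 (standard error 0.20), Fdps at 0.15, Sqle at -0.15 and Fdft1 at -0.17, with adjusted p-values from 0.254 to 0.498. Without those libraries they were at 0.42, -0.07, -0.26 and -0.10.

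The comparison by MMI set 8 rats with the lesion against 8 without. Sc5d rose by 0.47 on the log2 scale (1.38-fold, standard error 0.15, 95% interval 0.16 to 0.78, adjusted p = 0.0303) and was the only one of the 7 to pass. Of all genes, 26% passed (3561 of 13673), 8.37% higher and 17.7% lower, so 1 of 7 was not above the share of the whole table. At an unadjusted p under 0.05 there were 3 of the 7 (Sc5d, Hmgcs1 and Fdft1), beside 42.1% of all genes. MMI and non-MMI rats overlapped in each of the 7 genes, as in all but 0.483% of all genes.

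Sc5d, which adds a double bond to the sterol ring just before the step of Dhcr7, was 678.3 at the lowest, 980.0 at the median and 1059 at the highest in rats without MMI. In rats with MMI it was 770.9, 1393 and 1824. Of the 8 rats with MMI 7 lay above every rat without it, and HFD rat 1256 was the exception. The 5 highest levels belonged to exactly the 5 libraries that stand apart: 1824 in SD rat 1247, 1478 in SD rat 1248, 1437 in HFD rat 1252, 1349 in HFD rat 1255 and 1515 in HFD rat 1274. The 3 other rats with MMI had 1061 (SD rat 1250), 771 (HFD rat 1256) and 1259 (HFD rat 1267).

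Without the 5 libraries the Sc5d difference was 0.10 (standard error 0.17, 95% interval -0.26 to 0.47, adjusted p = 0.863; 3 rats against 8), and no gene of 13650 passed (997 genes, 7.30%, at an unadjusted p under 0.05). Leaving out single rats ended the call for SD rats 1244, 1247 and 1248 and HFD rats 1252 and 1274, with adjusted p-values of up to 0.0663. The difference was 0.66 within the SD rats and 0.28 within the HFD rats.

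Hmgcs1 was 453.9 at the lowest, 504.3 at the median and 596.7 at the highest in rats without MMI, and 420.5, 652.5 and 896.2 in rats with it. The log2 difference was 0.36 (standard error 0.14, adjusted p = 0.066), with 5 of 8 rats above every rat without MMI and 1 below. Its spread was wider with the lesion, at a standard deviation of 169.8 against 46.3. With the 5 libraries left out it was 0.06 (adjusted p = 0.916).

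Fdft1 was 1743 at the lowest, 2110 at the median and 2408 at the highest without MMI, and 1749, 2494 and 3729 with it, a log2 difference of 0.30 (standard error 0.14, adjusted p = 0.108). The SD rats with MMI, 1247, 1248 and 1250, had 3376, 3729 and 2902, and the SD rats without it had 1743 to 2408. Rats 1247 and 1248 are among the libraries that stand apart. The share of all genes that separate in this way within the SD rats was not counted. The HFD rats with MMI had 1749 to 2706, overlapping the 1899 to 2194 of the HFD rats without it. The log2 difference was 0.66 within the SD rats and 0.10 within the HFD rats, and the interaction of diet with MMI was -0.56 (standard error 0.21, unadjusted p = 0.0177, adjusted p = 0.658), which did not pass. In the 11 other rats the difference over both diets was 0.23 (adjusted p = 0.665).

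Fdps pointed down, from 1246, 1550 and 1886 at the lowest, median and highest without MMI to 984.3, 1266 and 1998 with it (log2 difference -0.24, standard error 0.14, adjusted p = 0.187). Its 3 lowest levels were those of SD rat 1247 (1041) and HFD rats 1252 (1152) and 1274 (984), all among the libraries that stand apart, and its highest was that of another rat with MMI, SD rat 1250. Without those libraries the difference was 0.04. Dhcr7 was at -0.29 (standard error 0.17, adjusted p = 0.193), Sqle at 0.22 (standard error 0.15, adjusted p = 0.258) and Stard4 at 0.07 (standard error 0.21, adjusted p = 0.815). In the 11 other rats these were -0.24, 0.09 and 0.16.

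Stard4 took opposite signs in the diets, at 0.45 for MMI within the SD rats (3 rats against 5) and -0.45 within the HFD rats (5 against 3). The interaction was -0.90 (standard error 0.37, unadjusted p = 0.0276, adjusted p = 0.683). None of the 7 passed in the interaction of diet with PH or with MMI, beside 0.0146% and 0% of all genes. At an unadjusted p under 0.05 there were none of the 7 by PH and 2 by MMI, beside 8.13% and 6.74% of all genes.

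Proximal tubule markers summed to between 188650 and 400639 in rats without MMI and to between 137741 and 304989 in rats with it, with 2 of 12 lower. Thick ascending limb markers summed to between 91519 and 147765 without MMI and to between 95384 and 220057 with it, with 2 of 8 higher and 1 lower. The 6 adrenal cortex markers measured, of a gland that makes steroids from cholesterol, summed to at most 113.1 in any library, and Cyp11b2 was listed at 0 in 5 of them. Podocyte markers summed to between 4045 and 6805 without MMI and to between 1865 and 6962 with it, with 1 of 8 higher and 2 lower. Of 7 endothelial markers 2 were lower by MMI, and of 9 macrophage markers 2 were lower. Of all genes, 8.37% were higher and 17.7% lower by MMI. The counts of 2 lower (of 12, 8, 7 and 9 markers) lie near the 17.7%. For the thick ascending limb, 2 of 8 higher lies above the 8.37%. The median log2 difference by MMI was -0.75 for proximal tubule, -0.63 for podocyte and -0.70 for adipocyte markers, beside 0.03 over all genes. It was -0.32 for fibroblast and smooth muscle, -0.07 for macrophage, -0.01 for endothelial and 0.25 for thick ascending limb markers. Without the 5 libraries that stand apart these list medians were, in the same order, -0.24, -0.04, -1.65, -0.72, -0.17, -0.30 and 0.10. The part of these cell types in the results by MMI was not tested.

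**Figure D3:**
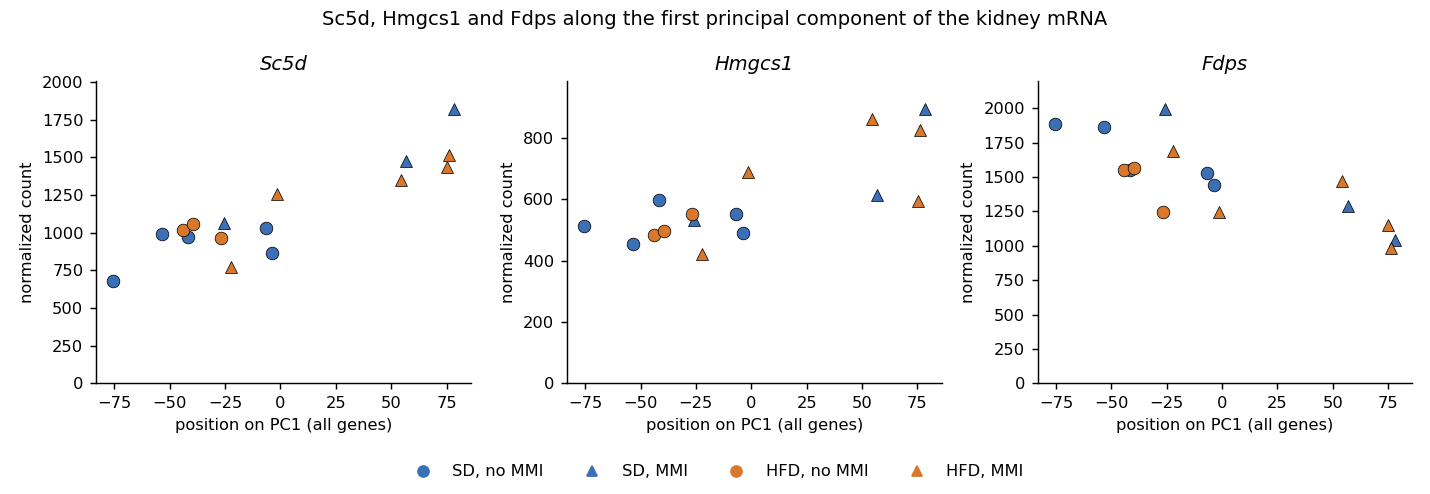
Normalized count (y axes, from 0) of Sc5d, Hmgcs1 and Fdps against the position of each library on PC1 (x axes, no unit), with colours for diet and triangles for rats with MMI. The 5 libraries at the right, at 54.3 to 78.3, hold the 5 highest Sc5d levels and the 3 lowest Fdps levels.

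The 5 libraries that stand apart held 4 of the 5 highest Hmgcs1 levels, 3 of the 5 highest Sqle and Fdft1 levels, and none of the 5 highest Fdps or Dhcr7 levels. Of the 5 lowest Fdps levels they held 3. PC1 is built from all genes, so these orders are a description of the libraries and not particular to the 7 genes.

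Whether the 7 genes varied together among rats was asked of their 21 pairs. Over all 16 rats 3 of the pairs passed (adjusted p of at most 0.0185, permutation test), Hmgcs1 with Sc5d in the same direction and Fdps with each of them in the opposite direction. In the same rats the median absolute r of Hmgcs1 was 0.39 with the other members and 0.49 with all genes. For Fdps it was 0.32 and 0.52, and for Sc5d 0.48 and 0.55. By this measure, which ignores sign, these genes were no closer to the members than to other genes. With the sign kept, the medians with members and with all genes were 0.32 and 0.01 for Sc5d. They were 0.09 and 0.01 for Hmgcs1 and -0.19 and 0.02 for Fdps. Because the 5 libraries form a separate cluster, the correlations were taken within the other 11 rats. There 14 pairs had a positive Pearson r and 7 a negative one, with a median of 0.14 and a range from -0.53 to 0.57. None passed (lowest adjusted p = 0.48 over 21 pairs, permutation test with 100000 resamples, two-sided), and none had an unadjusted p under 0.05.

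The closest pair was Hmgcs1 with Sc5d (r = 0.57, permutation p = 0.0676; rho = 0.43, p = 0.194; n = 11), which fell to r = 0.06 without the 2 rats farthest from the median of Hmgcs1. Fdft1 with Fdps had r = 0.57 (permutation p = 0.0668; rho = 0.50, p = 0.123) and 0.32 without 2 such rats. Hmgcs1 with Fdps was the most opposed (r = -0.53, permutation p = 0.0903; rho = -0.47, p = 0.145) and was at -0.29 without 2 such rats. In these 11 rats no pair passed in either direction.

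Among the 14 other enzymes of the pathway tested, which include Ggps1 of a side branch, 4 rose and 3 fell by MMI, beside 8.37% and 17.7% of all genes, and none passed by diet (0% of all genes) or by PH (1.27%). The list's median log2 difference by MMI was 0.22, beside 0.03 over all genes, and it was -0.01 without the 5 libraries that stand apart. With the members that are enzymes, the 20 enzymes of synthesis had 5 higher and 3 lower. Mvd, which makes isopentenyl pyrophosphate, fell from 393.9 ± 282.0 to 98.1 ± 62.8 (mean ± standard deviation, n = 8 and 8; log2 difference -2.01, standard error 0.42, adjusted p = 0.00798). Tm7sf2, a sterol reductase, fell by 0.89 (standard error 0.21, adjusted p = 0.00907).

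Msmo1, which removes methyl groups from the sterol ring, rose from 565.3 ± 74.9 to 835.4 ± 173.5 (mean ± standard deviation, n = 8 and 8; log2 difference 0.54, standard error 0.13, adjusted p = 0.0100). Nsdhl, of the same demethylating complex, rose by 0.39 (standard error 0.10, adjusted p = 0.0129). The others to pass were Ggps1 and Hsd17b7, higher, and Mvk, lower, at 0.55, 0.42 and -1.14. Without the 5 libraries none of the 14 passed, and Mvd was at -1.04, Tm7sf2 at -0.39, Msmo1 at 0.21, Nsdhl at 0.17, Ggps1 at 0.10, Hsd17b7 at 0.32 and Mvk at -0.24.

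**Figure D4:**
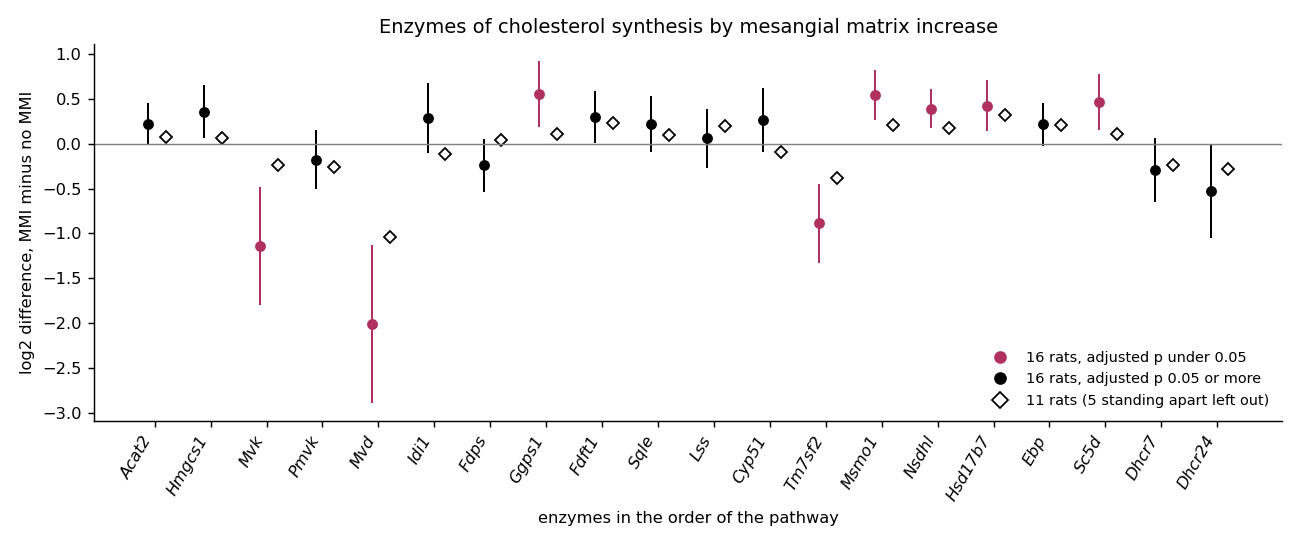
Log2 difference between rats with and without MMI (y axis, with 95% intervals) of 20 enzymes of cholesterol synthesis in pathway order, in 16 rats (circles, red where the adjusted p was under 0.05) and in the 11 rats left without the libraries that stand apart (diamonds). In 16 rats 5 enzymes were higher and 3 lower, and Mvd lies lowest at -2.01.

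By PH, Ggps1 (log2 difference -0.62, standard error 0.17, adjusted p = 0.0601) and Cyp51, the lanosterol demethylase (-0.45, standard error 0.15, adjusted p = 0.0798), had the smallest p-values of the list. Without HFD rat 1252 Cyp51 passed (adjusted p = 0.0130), and Ggps1 passed without it (adjusted p = 0.00834) and also without SD rat 1250. Of all genes, 27.8% passed by PH without rat 1252 and 15.7% without rat 1250. Without the 5 libraries Ggps1 was at -0.34 and Cyp51 at -0.42. The comparisons by PH and by MMI are made on the same 16 rats, of which 6 had PH only, 5 MMI only, 3 both and 2 neither. A difference by PH is therefore in part the difference by MMI with its sign turned. With MMI as a covariate 0 genes passed by PH, and with PH as a covariate 1046 passed by MMI.

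Of 10 genes that regulate SREBP, 2 rose and 2 fell by MMI, beside 8.37% and 17.7% of all genes. Srebf2, the factor itself, fell by 0.42 (standard error 0.14, adjusted p = 0.0400), from 1001.8 ± 186.0 to 753.9 ± 170.5 (mean ± standard deviation, n = 8 and 8), and passed in 6 of the 16 fits that left out a single rat (without 1250, 1251, 1255, 1256, 1267 or 1275). Scap, its carrier, fell by 0.67 (standard error 0.19, adjusted p = 0.0185). Mbtps2, the protease that releases SREBP within the membrane, rose by 0.48 (adjusted p = 0.0322), and Erlin2, which binds INSIG and sterols, rose by 0.35 (adjusted p = 0.0357).

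Insig1 (0.19, adjusted p = 0.341) and Insig2 (0.21, adjusted p = 0.164) did not pass. By PH none of the 10 passed, and the smallest p-values were those of Rnf139, a ubiquitin ligase (-0.38, adjusted p = 0.0729), and Scap (0.63, adjusted p = 0.0735), each of which passed in 2 of the 16 fits without a single rat (1252 or 1256 for Rnf139, 1250 or 1252 for Scap). In the 11 other rats Srebf2 by MMI was at -0.32 and Scap at -0.40, neither of which passed (adjusted p = 0.654 and 0.673), while Mbtps2 and Erlin2 were both at 0.16, Insig1 at -0.05 and Insig2 at 0.22.

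Of 13 genes of sterol uptake and lysosomal handling, 2 rose and 3 fell by MMI, beside 8.37% and 17.7% of all genes, and none passed by diet (0%) or PH (1.27%). Npc1, which exports cholesterol from lysosomes, rose by 0.28 (standard error 0.09, adjusted p = 0.0251), and Mylip, a ubiquitin ligase, by 0.51 (adjusted p = 0.0349). Stard3, an endosomal cholesterol carrier, fell by 0.80 (adjusted p = 0.0136), Lrp1, an endocytic receptor, by 0.87 (adjusted p = 0.0216) and Scarb1, the HDL receptor, by 0.52 (adjusted p = 0.0226). By PH the smallest p-values were those of Scarb1 (0.44, adjusted p = 0.0989, and 0.0413 without HFD rat 1252) and Lrp2, megalin (0.32, adjusted p = 0.147). In the 11 other rats the differences by MMI were 0.16 for Npc1, 0.15 for Mylip, -0.19 for Stard3, -0.80 for Lrp1 and -0.30 for Scarb1, and by PH Scarb1 was at 0.23.

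Of 9 genes of sterol efflux, esterification and oxysterols, 2 rose and 2 fell by MMI, beside 8.37% and 17.7% of all genes, and 1 rose by PH, beside 0.746%. Apoe, which encodes an apolipoprotein of cholesterol transport, was 7849 ± 4830 without MMI and 1381 ± 1094 with it (mean ± standard deviation, n = 8 and 8; log2 difference -2.54, standard error 0.52, adjusted p = 0.00798), and it was 2.41 higher by PH (standard error 0.57, adjusted p = 0.0485), which held in 3 of the 16 fits without a single rat (1250, 1252 or 1256, where 15.7%, 27.8% and 3.06% of all genes passed). Nr1h2, a nuclear receptor for oxysterols, fell by 1.81 by MMI (adjusted p = 0.00798). Soat1, which esterifies cholesterol, rose by 0.52 (adjusted p = 0.0240), and Cyp7b1, an oxysterol hydroxylase, by 0.52 (adjusted p = 0.0324). Cyp27a1 was at -0.43 by PH (adjusted p = 0.0683) and passed without rat 1250 or 1252. Without the 5 libraries, Apoe by MMI was at -1.23 (adjusted p = 0.654), Nr1h2 at -0.81, Soat1 at 0.17 and Cyp7b1 at 0.25. By PH Apoe was at 1.70 and Cyp27a1 at -0.13 in those rats, and none of the genes of these lists passed by either lesion.

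Among 6 genes of fatty acid synthesis tested, 1 rose by PH and 1 fell by MMI, beside 0.746% and 17.7% of all genes. These were Fasn, fatty acid synthase (1.52, adjusted p = 0.0461), and Srebf1 (-1.39, adjusted p = 0.0107), named after their values were seen. In the 11 other rats Fasn by PH was at 1.56 and Srebf1 by MMI at -0.55, and neither passed.

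The genes most like the mean of the 7 standardized levels, over 16 libraries, were Arsb (r = 0.81), Acad11 (0.80), Zdhhc3 (0.80), Hsd17b12 (0.78), Cog5 (0.77), Slc31a1 (0.75), Lpgat1 (0.75) and Pcyt1a (0.74). These values describe shared libraries, of which 5 stand apart, and within the other 11 rats the 8 genes had r from 0.52 to 0.84. The 8 genes were picked over libraries that include these 11, so the values in the 11 rats are not a separate check.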

How the data were processed

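The deposited signal values are the authors' normalized counts per gene and library. Per the study's methods and the submitters' processing notes, the authors trimmed directional total RNA libraries with Cutadapt, quantified them with Salmon against Rnor6.0 and used DESeq2 (1.24.0). No step worth 1 read was found in the values, so reads were not recovered, no count test was run, and the depth behind a value is unknown. The authors' columns of fold changes and p-values by diet were not used.

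Genes with a mean of at least 5 over the 16 libraries were compared with limma (3.58.1, R 4.3.3, trended variance) on log2(value + 1), each comparison in its own fit, with Benjamini-Hochberg adjustment over all genes. A fold change on this scale understates changes of low genes. Pairs of genes were tested by permutation with 100000 resamples. The fit was tested on simulated data with noise drawn separately for each gene. Those data hold no cluster of libraries, so they cannot show how the calls fare with the 5 that stand apart. Rats are the replicates.

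The members, lists and tests were chosen with earlier results of these data known. Named genes were every member, Srebf2, Scap, Insig1 and Insig2, the 4 genes with the smallest p by MMI and the 2 by PH in each other sterol list, and the 8 genes most like the members, besides those named to complete a count. Alternatives were pseudocounts of 0.5 and 5, filters, TMM scaling factors, equal totals, robust variance, array weights, covariates and subsets of rats. Leaving out the 5 libraries that stand apart was chosen after seeing the data. Promoters came from RefSeq (GRCr8). Coefficients of single pairs over all 16 rats, though planned, are not printed, since 5 libraries form a cluster of their own. Only how many passed and the medians for the genes of those pairs are given. Some genes are not reported here and were left out of the lists. Small RNA was not analysed here.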

Additional observations from a re-analysis of the deposited data

Results flagged for a closer look

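Of 42 groups of rats tested over the 7 genes, 4 held a rat far from the rest of its group by Dixon's criterion on log2 values. Chance alone gives this in about 1 of 20 separate groups, but these groups reuse the same rats by diet, PH and MMI and are not separate trials. The levels below are normalized counts. Hmgcs1 in SD rat 1247 was at 896.2, above the next SD rat at 615.6. Sqle in HFD rat 1252 was at 419.2, above the next rat with PH at 295.2. Dhcr7 in HFD rat 1274 was at 430.2, below the next HFD rat at 680.7. Sc5d in SD rat 1244 was at 678.3, below the next rat without MMI at 867.2. The first 3 of these rats are among the 5 libraries that stand apart on PC1, and SD rat 1244 lies at the other end of it, at -75.7.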

How the results depend on the processing

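By diet, none of the 7 genes passed under any alternative. By PH, 0 passed, but 3 with array weights (Hmgcs1, Dhcr7 and Sc5d), 1 with diet as a covariate (Dhcr7) and 0 to 1 when single rats were left out (Dhcr7 without HFD rat 1252, adjusted p = 0.0341). By MMI, 1 passed, but 4 with array weights (Hmgcs1, Fdft1, Fdps and Sc5d), 2 with diet as a covariate (Fdft1 and Sc5d), 0 with PH as a covariate, 0 without rats 1246, 1248 and 1249, 0 in HFD rats only, 0 in SD rats only, 0 without the 5 libraries that stand apart, and 0 to 3 when single rats were left out; 3 passed without SD rat 1250 and 2 without HFD rat 1255 or 1256. The causes were not tested.

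Signs turned in these cases: Sqle by diet to 0.031 with equal totals; Hmgcs1 by diet to -0.0016, Fdps by PH to -0.074, Fdps by MMI to 0.044 and Insig1 by MMI to -0.054 without the 5 libraries; Fdft1 by PH to 0.19 and Stard4 by MMI to -0.45 in HFD rats only; Stard4 by PH to -0.060 and Lrp2 by PH to -0.019 in SD rats only. With single rats left out, Sqle by diet ranged from -0.13 to 0.011, Hmgcs1 by diet from -0.0075 to 0.16, Dhcr7 by diet from -0.17 to 0.027 and Stard4 by MMI from -0.019 to 0.16. Over all genes, 174 passed by PH but 4976 with array weights, 3806 with diet as a covariate, and 0 with MMI as a covariate or without rats 1246, 1248 and 1249, and 0 to 3805 when single rats were left out; by MMI 3561 passed but 6532 with array weights, 2966 with diet as a covariate, 1046 with PH as a covariate, 1479 without rats 1246, 1248 and 1249, 0 in HFD rats only, 2 in SD rats only, 0 without the 5 libraries, and 2045 to 4951 when single rats were left out. Of the other sterol genes named by MMI, Apoe, Lrp1, Msmo1, Mvd, Nr1h2, Nsdhl, Scap, Stard3 and Tm7sf2 passed without each single rat in turn (16 of 16 fits), Scarb1 in 14, Npc1 and Soat1 in 12, Cyp7b1 in 9, Erlin2 and Mbtps2 in 8 and Srebf2 in 6.

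No paired analysis was possible because no rat stands on both sides of a comparison. The lesions read by eye and the few rats in each diet and lesion limit all comparisons by lesion.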
